A study of Gallus gallus with 20 samples.

Results

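The insulin-like growth factor (IGF) genes described here are 2 ligands (IGF1, IGF2), 2 receptors (IGF1R, IGF2R) and 6 binding proteins (IGFBP1, IGFBP2, IGFBP3, IGFBP4, IGFBP5, IGFBP7). They were taken by symbol from a table of raw read counts of chicken liver. All 10 were present among the 13956 entries of the table named by a gene symbol, and all 10 passed the filter on low counts that left 10697 named genes for testing. Liver was sampled from Ogye, a Korean native breed, and Cornish, a meat breed, at 5 weeks and at 10 weeks of age, in a study of why the body weights of these breeds diverge. Each of the 4 groups, Ogye at 5 weeks, Cornish at 5 weeks, Ogye at 10 weeks and Cornish at 10 weeks, held 5 libraries of total liver RNA, 20 in all. The labels name no treatment, allele, sex or individual bird. Libraries carry replicate numbers 1 to 5 in each group, and p-values measure the spread between libraries, which may be technical.

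Liver is the main source of IGF1 in the blood of growing birds and mammals, and its IGF1 output depends on growth hormone acting through the growth hormone receptor. IGF1 and IGF2 act on cells through IGF1R, a tyrosine kinase, while IGF2R carries lysosomal enzymes to lysosomes and in mammals also clears IGF2, a ligand that the chicken receptor does not bind with high affinity. Most IGF in blood is bound to IGFBPs, which prolong its life and limit or direct its access to the receptor. IGFBP3 and IGFBP5 can join an IGF and the acid-labile subunit, encoded by IGFALS, in a ternary complex.

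Libraries held 14865637 to 31848768 counts, of which 9625549 to 21106844 fell on named genes. The 10 IGF genes together took 0.0422% to 0.0744% of the named counts. Levels are in CPM (counts for every 1e+06 scaled counts that fell on named genes) and are not divided by gene length, so levels are compared between groups and not between genes. Replicates 3, 4 and 5 of Ogye at 5 weeks stood apart from the other 17 libraries. In these 3 the Spearman correlation across genes between gene span and the deviation of expression from the median library was -0.61 to -0.60, against -0.15 to 0.36 in the other 17, so longer genes read lower there. The IGF genes are therefore shown in every comparison also without these 3 libraries, which leaves 2 libraries in that group. For other genes, values or counts without them stand beside most, not all, of the differences that rest on Ogye at 5 weeks. The correlation with gene span also separated the ages among the other 17 libraries. Its highest value at 5 weeks was 0.080, in replicate 1 of Ogye, and its lowest at 10 weeks was 0.11, in replicate 5 of Ogye. Leaving out replicates 3, 4 and 5 does not take this difference out of the age comparisons. Apart from a fit with an offset for gene span, its part in them was not tested. Markers of hepatocytes, stellate cells, endothelial cells, Kupffer cells, bile duct, red cells and lymphocytes were screened as lists, and no marker found in the table was at 0 in any library. All 6 hepatocyte markers were present, with a summed level of 122222 to 273602 CPM. In RNA of whole liver, fewer cells of a type and less RNA per cell cannot be told apart.

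At 10 weeks IGF1, IGF2 and IGFBP2 were higher in Cornish than in Ogye livers, and no IGF gene was called lower. These 3 of 10 genes passed the edgeR quasi-likelihood test at a Benjamini-Hochberg adjusted p under 0.05, where 4.06% of all tested genes were called higher, 3.59% lower and 7.65% in either direction. IGFBP2 was higher by 3.34 on the log2 scale, IGF1 by 1.503 and IGF2 by 1.08. The median log2 fold change of the 10 genes was 0.53, beside -0.027 over all tested genes. The libraries of both breeds did not overlap for 2 of the 10 genes, IGF1 and IGFBP2, beside 12.3% of all tested genes. Without the 3 Ogye libraries of 5 weeks, which enter this comparison through the shared spread, the same 3 genes were called, beside 17.2% of tested genes.

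At 5 weeks IGFBP7 alone was called between the breeds, lower in Cornish (log2 fold change -0.68) with overlapping libraries. This 1 of 10 stands beside 12.3% of tested genes called lower, 6.75% called higher and 19.1% called in either direction by edgeR. The median log2 fold change of the 10 genes was -0.11, beside 0.0041 over all tested genes. Without the 3 Ogye libraries none of the 10 was called, beside 0.904% of 10957 tested genes, and the unadjusted p was under 0.05 for IGFBP2 alone. The median of the 10 genes was then -0.067, beside 0.016 over all tested genes. No IGF gene had libraries that did not overlap, beside 6.85% of all tested genes.

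From 5 to 10 weeks in Ogye livers IGF1, IGFBP2 and IGFBP7 fell and IGF2R rose. The 3 lower and 1 higher of 10 stand beside 24.8% of tested genes called lower and 21.2% called higher by edgeR, a comparison in which 46.1% of all tested genes were called. The median log2 fold change of the 10 genes was -0.41, beside -0.0044 over all genes. Libraries of the 2 ages did not overlap for 3 of the 10, IGF1, IGF2R and IGFBP2, beside 19.9% of tested genes. Without the 3 Ogye libraries of 5 weeks the calls of IGF1 and IGFBP2 held, those of IGF2R and IGFBP7 did not, 14% of tested genes were called, and the median of the 10 genes was -0.23. In Cornish livers over the same weeks IGF2R alone was called, higher at 10 weeks, which is 1 of 10 beside 4.07% of tested genes called higher, 3.29% lower and 7.36% either way. Its libraries did not overlap between the ages, as was so for 16.3% of tested genes. Without the 3 Ogye libraries IGF2R and IGFBP4 were called, beside 20.3% of tested genes. The median of the 10 genes was 0.44 there, beside -0.039 over all genes.

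The breed effect at 10 weeks differed from that at 5 weeks for 4 of the 10 genes, IGF1, IGF2, IGFBP2 and IGFBP5, all with a higher Cornish-to-Ogye ratio at 10 weeks. In this interaction edgeR called 13.3% of tested genes higher, 10.1% lower and 23.4% in either direction. Without the 3 Ogye libraries the interaction was called for IGF1 and IGFBP2, beside 13.6% of tested genes called either way. The median of the 10 genes in the interaction was 1.09 over 20 libraries and 0.50 without the 3, beside -0.046 and -0.051 over all tested genes. The 5 comparisons share libraries, so their results are not independent of each other.

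**Figure D1:**
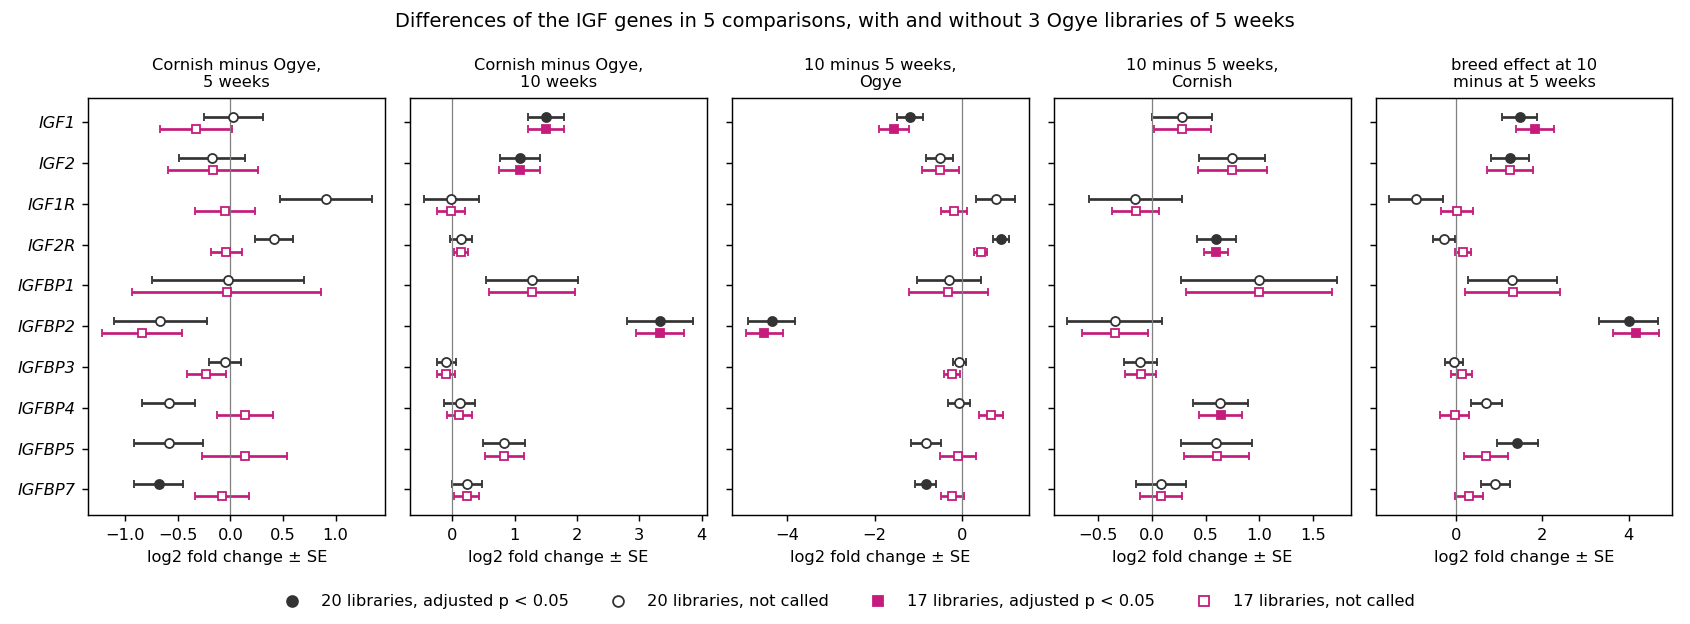
Log2 fold change ± standard error (x axis, a separate scale in each panel) of the 10 IGF genes (y axis) in 5 comparisons, from the fit to 20 libraries (circles) and without replicates 3, 4 and 5 of Ogye at 5 weeks (squares, 17 libraries). Filled symbols passed an adjusted p under 0.05. IGF1 and IGFBP2 are filled in both fits in the 10-week breed comparison, the Ogye age comparison and the interaction.

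Among the ligands, IGF1 is the growth hormone-dependent hormone of postnatal growth. IGF1 (chromosome 1, 55326358 to 55374742, RefSeq on GRCg7b) was measured at 28.0, 29.8, 15.7, 21.1 and 18.2 CPM in replicates 1 to 5 of Ogye at 5 weeks and at 14.1, 15.3, 7.24, 9.68 and 3.09 CPM in those of Ogye at 10 weeks. Cornish livers gave IGF1 levels of 16.4, 26.8, 22.5, 21.8 and 27.6 CPM at 5 weeks and 29.1, 29.6, 25.4, 30.0 and 25.6 CPM at 10 weeks. Every Ogye library of 10 weeks was below every library of the other 3 groups, and replicate 5 of Ogye at 10 weeks was the lowest of all. Group means were 27.9 ± 2.25 CPM in Cornish at 10 weeks, 23.0 ± 4.49 in Cornish at 5 weeks, 22.6 ± 6.14 in Ogye at 5 weeks and 9.88 ± 5.01 in Ogye at 10 weeks (SD, n = 5). The libraries of the first 3 groups in this order overlapped.

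At 10 weeks IGF1 was 2.83-fold higher in Cornish (log2 fold change 1.503 ± 0.29, standard error, edgeR adjusted p = 0.00565). At 5 weeks the breeds differed by 0.027 ± 0.28 (adjusted p = 0.949, edgeR), with an interval of 2 standard errors from -0.54 to 0.59. IGF1 fell by a log2 fold change of -1.20 ± 0.29 in Ogye from 5 to 10 weeks (adjusted p = 0.00306, edgeR), and by -1.55 ± 0.34 without the 3 libraries (adjusted p = 0.00847). In Cornish the age difference was 0.28 ± 0.28 (adjusted p = 0.579). The breed effect at 10 weeks exceeded that at 5 weeks by 1.48 ± 0.40 (adjusted p = 0.0140, edgeR). This interaction was, with the 3 libraries left out, 1.83 ± 0.44 (adjusted p = 0.0125), and the breed difference at 5 weeks was -0.33 ± 0.35 (adjusted p = 0.732).

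IGF2 is the second ligand and, in mammals, a growth factor of fetal life. IGF2 (chromosome 5, 13375612 to 13394087) was at 101, 45.0, 97.5, 69.5 and 55.1 CPM in Ogye at 5 weeks and 50.2, 83.2, 47.2, 38.5 and 39.0 CPM in Ogye at 10 weeks. The Cornish libraries held 42.9, 102, 53.4, 34.8 and 93.5 CPM of IGF2 at 5 weeks and 124, 73.6, 142, 80.9 and 127 CPM at 10 weeks. Spread within groups was wide for IGF2, with coefficients of variation of 27.7% to 46.5%, and at 10 weeks replicate 2 of Ogye lay above replicates 2 and 4 of Cornish. IGF2 was 2.12-fold higher in Cornish at 10 weeks, with means of 109 ± 30.3 and 51.6 ± 18.4 CPM (SD, n = 5; log2 fold change 1.08 ± 0.31, edgeR adjusted p = 0.0409). This call was lost when any of 7 single libraries was left out, replicates 1, 3, 4 and 5 of Ogye or 1, 3 and 5 of Cornish at 10 weeks, with adjusted p from 0.0704 to 0.0914, and with the replicate number as a block (adjusted p = 0.0522). IGF2 differed by -0.18 ± 0.31 between breeds at 5 weeks, by -0.51 ± 0.31 with age in Ogye and by 0.75 ± 0.31 with age in Cornish (adjusted p = 0.694, 0.182 and 0.139, edgeR), of which the first and second were -0.17 ± 0.42 and -0.50 ± 0.42 without the 3 libraries. The interaction of 1.26 ± 0.44 (adjusted p = 0.0447) held in 7 of the 20 fits that left out 1 library (replicates 2 and 5 of either breed at 5 weeks, 2 of Ogye and 2 and 4 of Cornish at 10 weeks) and was 1.25 ± 0.53 without the 3 Ogye libraries (adjusted p = 0.125).

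IGF1R, the receptor that signals for both ligands, spans 147 kb (chromosome 10, 16697226 to 16844358), the longest of the 10 genes. IGF1R was at 8.51, 6.08, 1.33, 1.45 and 1.04 CPM in Ogye at 5 weeks, with replicates 3, 4 and 5 below every other library of the study. The other groups held 4.13 to 9.09 CPM in Cornish at 5 weeks, 3.91 to 9.48 in Ogye at 10 weeks and 5.59 to 6.91 in Cornish at 10 weeks, and these overlapped one another. No comparison called IGF1R, and the breed difference at 10 weeks was -0.020 ± 0.44 (adjusted p = 0.987, edgeR). At 5 weeks the difference of 0.91 ± 0.44 (adjusted p = 0.137) became -0.054 ± 0.29 without the 3 libraries, and without replicate 1 of Ogye at 5 weeks it was 1.46 (adjusted p = 0.0110). Leaving out that replicate also brought calls of IGF1R with age in Ogye, at 1.33, and in the interaction, at -1.48 (adjusted p = 0.0109 and 0.0429). Over 20 libraries these 2 values were 0.77 ± 0.44 and -0.93 ± 0.62 (adjusted p = 0.159 and 0.276), and without the 3 libraries -0.18 ± 0.29 and 0.031 ± 0.37 (adjusted p = 0.712 and 0.963, edgeR).

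IGF2R, the mannose 6-phosphate receptor, was the only IGF gene called with age in both breeds. IGF2R (chromosome 3, 45169338 to 45223492, 54.2 kb) was at 80.3, 70.2, 37.6, 41.4 and 44.2 CPM in Ogye at 5 weeks and 115, 85.2, 97.1, 105 and 101 CPM in Ogye at 10 weeks. Cornish livers held IGF2R at 60.5, 70.8, 76.4, 78.8 and 78.8 CPM at 5 weeks and 97.9, 133, 106, 112 and 103 CPM at 10 weeks. In each breed every library of 10 weeks was above every library of 5 weeks. IGF2R was higher at 10 weeks by 0.88 ± 0.18 in Ogye (adjusted p = 0.000977) and by 0.60 ± 0.18 in Cornish (adjusted p = 0.0494, edgeR), and the interaction was -0.28 ± 0.26 (adjusted p = 0.426). The Ogye value was 0.43 ± 0.15 without the 3 libraries (adjusted p = 0.0673), in which IGF2R was 37.6 to 44.2 CPM against 70.2 and 80.3 CPM in the other 2. The Cornish call lay close to the threshold and was lost in 14 of the 20 fits that left out 1 library, namely replicates 1 to 5 of Cornish at either age and replicates 1, 3, 4 and 5 of Ogye at 10 weeks, with log2 fold changes of 0.52 to 0.64 and adjusted p up to 0.129. With the replicate block it had an adjusted p of 0.0777, and it was lost also with no filter and with all entries of the table. It was called with RLE size factors, by DESeq2, with the compared groups only, with an offset for gene span and with the W-chromosome covariate. Without the 3 Ogye libraries the Cornish value was 0.60 ± 0.11 (adjusted p = 0.00265, edgeR). Between breeds IGF2R differed by 0.42 ± 0.18 at 5 weeks (adjusted p = 0.104) and by 0.13 ± 0.18 at 10 weeks (adjusted p = 0.719, edgeR), the former called without replicate 1 or without replicate 2 of Ogye at 5 weeks (adjusted p = 0.0110 and 0.0439). Leaving out the other 3 libraries of that group gave -0.041 ± 0.15 at 5 weeks and 0.17 ± 0.18 in the interaction (adjusted p = 0.935 and 0.563).

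**Figure D2:**
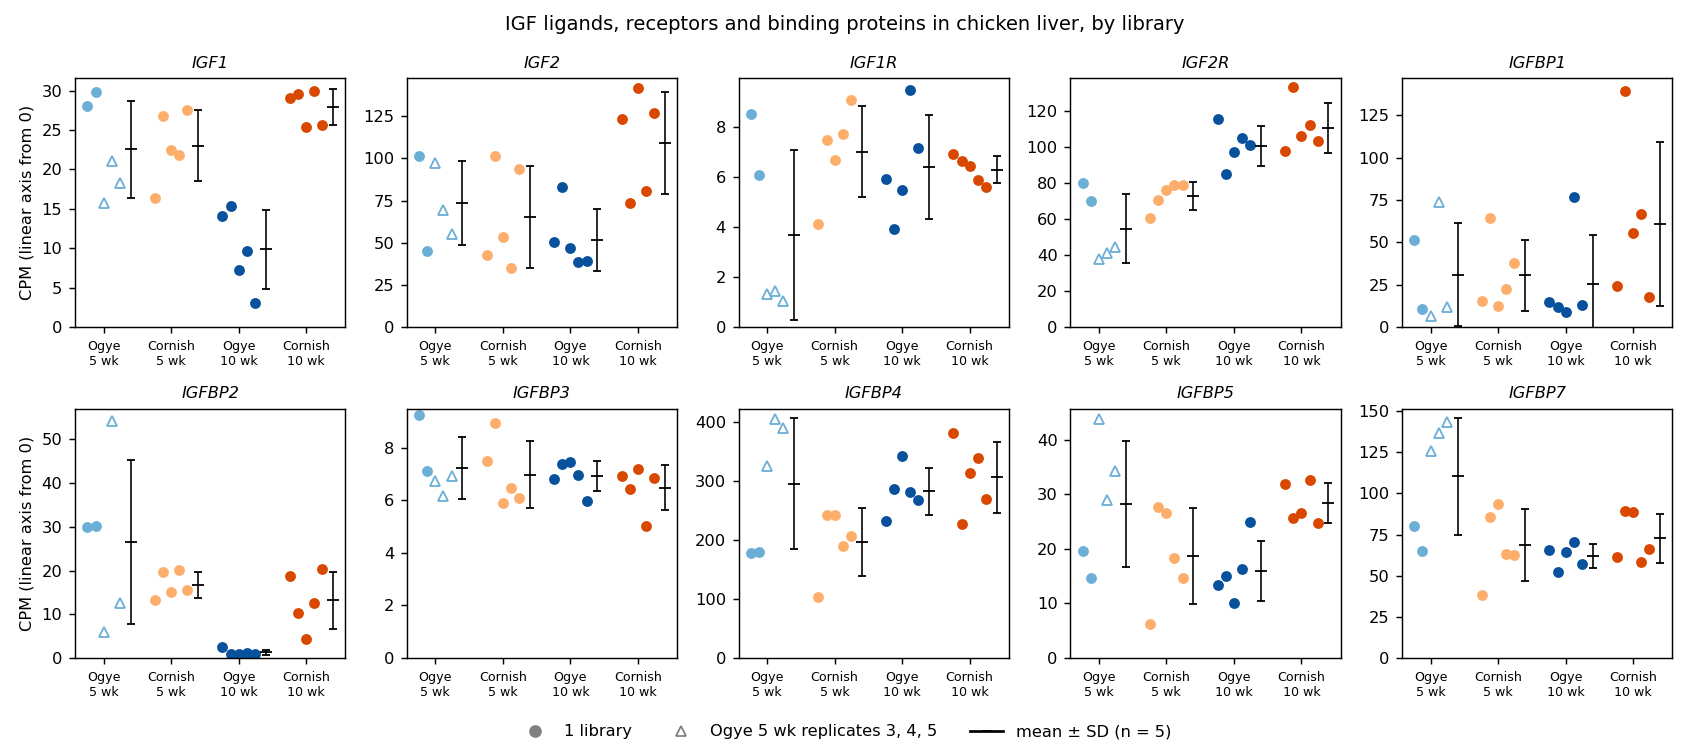
Level of each of the 10 IGF genes (y axis, CPM, linear from 0) in 20 libraries by group (x axis); points are libraries, open triangles replicates 3, 4 and 5 of Ogye at 5 weeks, and bars the mean ± SD (n = 5). IGFBP2 in Ogye at 10 weeks lies at 0.813 to 2.42 CPM, below all other libraries, and IGF1 of the same group at 3.09 to 15.3 CPM.

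IGFBP2, a binding protein that liver secretes and that in mammals rises in fasting, had the widest range between groups. IGFBP2 (chromosome 7, 22879236 to 22951723) was at 29.9, 30.2, 5.97, 54.2 and 12.6 CPM in Ogye at 5 weeks and 2.42, 1.01, 0.813, 1.21 and 0.998 CPM in Ogye at 10 weeks. Cornish libraries held IGFBP2 at 13.2, 19.7, 15.2, 20.01 and 15.6 CPM at 5 weeks and 18.7, 10.3, 4.32, 12.5 and 20.3 CPM at 10 weeks. All 5 Ogye libraries of 10 weeks were below all libraries of the other groups, which overlapped one another. These 5 libraries rest on 9 to 29 counts of IGFBP2 each, above the 3 counts that a count of 0 would allow, so counting error alone is sizeable there. Means were 26.6 ± 18.8 CPM in Ogye at 5 weeks, 16.7 ± 2.98 in Cornish at 5 weeks, 13.2 ± 6.48 in Cornish at 10 weeks and 1.29 ± 0.645 in Ogye at 10 weeks (SD, n = 5).

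IGFBP2 was 10.1-fold higher in Cornish than in Ogye at 10 weeks (log2 fold change 3.34 ± 0.53, edgeR adjusted p = 0.00170). It was 20.4-fold lower in Ogye at 10 than at 5 weeks (log2 fold change -4.35 ± 0.54, adjusted p = 4.1e-05), and without the 3 libraries the log2 fold change was -4.52 ± 0.43 (adjusted p = 6e-05). In Cornish the age difference was -0.35 ± 0.44 (adjusted p = 0.675, edgeR), and the interaction was 4.004 ± 0.69 (adjusted p = 0.000890). At 5 weeks the breeds differed by -0.67 ± 0.44 (adjusted p = 0.264), with Ogye libraries from 5.97 to 54.2 CPM on either side of the Cornish range. This difference, with the 3 libraries left out, was -0.84 ± 0.38 (adjusted p = 0.364) and the interaction 4.17 ± 0.53 (adjusted p = 0.000247, edgeR). The ratio of IGF1 to IGFBP2 counts within a library had a median of 8.0 in Ogye at 10 weeks, from 3.09 to 15.2, against medians of 0.988 in Ogye and 1.36 in Cornish at 5 weeks and 2.40 in Cornish at 10 weeks. The Ogye libraries of 10 weeks overlapped in this ratio with the Cornish libraries of 10 weeks, at 1.26 to 5.88.

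**Figure D3:**
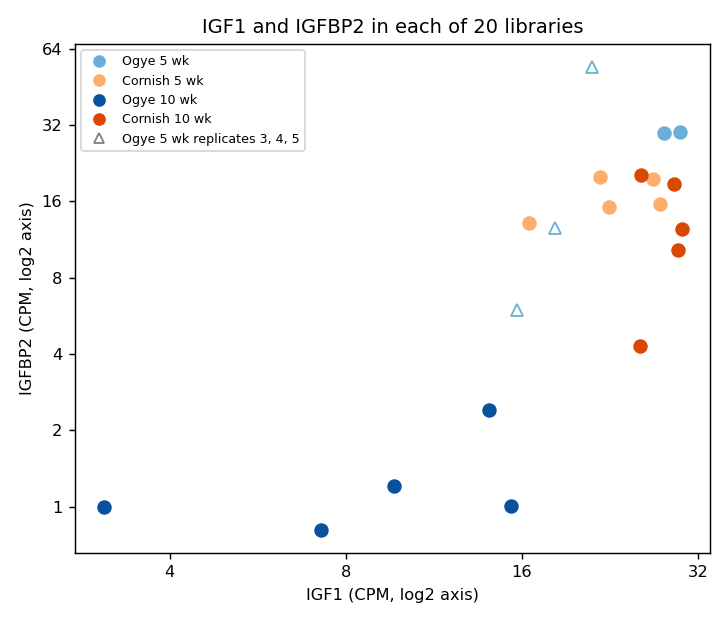
IGF1 (x axis) against IGFBP2 (y axis), both in CPM on log2 axes, with 1 point per library coloured by group and open triangles for replicates 3, 4 and 5 of Ogye at 5 weeks. The 5 Ogye libraries of 10 weeks lie at the lower left, at or below 15.3 CPM of IGF1 and 2.42 CPM of IGFBP2.

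IGFBP5, which lies 2.59 kb from IGFBP2 on chromosome 7 (22854992 to 22876649), is a binding protein found also in bone and muscle. IGFBP5 was at 19.5, 14.6, 43.7, 28.9 and 34.2 CPM in Ogye at 5 weeks and 13.4, 15.0, 10.1, 16.2 and 24.9 CPM in Ogye at 10 weeks. Cornish livers held IGFBP5 at 6.31, 27.6, 26.7, 18.3 and 14.7 CPM at 5 weeks and 31.96, 25.8, 26.7, 32.7 and 24.7 CPM at 10 weeks. Libraries overlapped in every comparison of 2 groups, and replicate 5 of Ogye at 10 weeks reached the lower end of the Cornish range. The interaction was called at 1.42 ± 0.47 (adjusted p = 0.0350, edgeR), and no single breed or age difference was over 20 libraries, the nearest being -0.82 ± 0.34 with age in Ogye (adjusted p = 0.0509) and 0.83 ± 0.34 between breeds at 10 weeks (adjusted p = 0.137). This 10-week difference was called when only the compared groups were fitted, at 0.85 (adjusted p = 0.0213, edgeR). Without the 3 libraries it was 0.83 ± 0.31 and not called (adjusted p = 0.0737). Without the 3 libraries the interaction was 0.70 ± 0.50 (adjusted p = 0.375), and it was lost in 10 of the 20 fits that left out 1 library, which were replicates 3, 4 and 5 of Ogye and 4 and 5 of Cornish at 5 weeks, and 1, 2 and 3 of Ogye and 1 and 4 of Cornish at 10 weeks, with adjusted p of 0.0516 to 0.0721. The Ogye age difference was called in 5 such fits, without replicate 1 or 2 of Ogye at 5 weeks, 1 or 2 of Cornish at 5 weeks, or 5 of Ogye at 10 weeks (adjusted p from 0.0166 to 0.0487). Without the 3 length-trended libraries it was -0.096 ± 0.40 (adjusted p = 0.895, edgeR), and the breed difference at 5 weeks was 0.14 ± 0.40 (adjusted p = 0.921) against -0.59 ± 0.33 over 20 libraries (adjusted p = 0.194).

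IGFBP7 binds IGFs weakly and is made in mammals by endothelial and stromal cells. IGFBP7 (chromosome 4, 48656657 to 48686876) was at 80.3, 65.2, 126, 137 and 144 CPM in Ogye at 5 weeks, where replicates 3, 4 and 5 were the highest of the study. The other groups held IGFBP7 at 38.4, 85.8, 93.8, 63.4 and 62.4 CPM in Cornish at 5 weeks, 65.4, 52.3, 64.2, 70.5 and 57.2 in Ogye at 10 weeks and 61.2, 89.4, 88.5, 58.4 and 66.0 in Cornish at 10 weeks. Replicates 1 and 2 of Ogye at 5 weeks, at 80.3 and 65.2 CPM, lay within the range of the Cornish libraries of 5 weeks and replicate 2 within that of Ogye at 10 weeks. IGFBP7 was lower in Cornish at 5 weeks (log2 fold change -0.68 ± 0.23, adjusted p = 0.0481) and fell with age in Ogye (log2 fold change -0.83 ± 0.24, adjusted p = 0.00814, edgeR). Without the 3 libraries these were -0.080 ± 0.26 (adjusted p = 0.927) and -0.23 ± 0.26 (adjusted p = 0.599). The 5-week call was also lost in 15 of the 20 fits that left out 1 library, with adjusted p up to 0.134. It stayed without replicate 1 or 2 of Ogye at 5 weeks, 2 or 3 of Cornish at 5 weeks, or 2 of Ogye at 10 weeks. The interaction was 0.91 ± 0.33 (adjusted p = 0.0519), and 4 of the fits without 1 library called it, those without replicate 1 or 2 of Ogye and 2 or 3 of Cornish at 5 weeks. It was called also by edgeR with RLE size factors, by DESeq2 and by edgeR with an offset for gene span (adjusted p = 0.0490, 0.0307 and 0.0299). With the 3 high libraries left out the interaction was 0.31 ± 0.33 (adjusted p = 0.559, edgeR).

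Markers of all 7 cell types screened were read in the same 2 comparisons as IGFBP7. Over all tested genes, 6.75% were called higher and 12.3% lower in Cornish at 5 weeks, and 21.2% rose and 24.8% fell with age in Ogye. Of 7 Kupffer cell markers, 5 were lower in Cornish at 5 weeks, and in Ogye 5 fell and 1 rose from 5 to 10 weeks. Their summed level was 1403 to 2746 CPM in Ogye at 5 weeks, 926 to 1270 CPM in Cornish at 5 weeks and 933 to 1490.5 CPM in Ogye at 10 weeks. Of 9 endothelial markers, 6 rose and none fell with age in Ogye, from a summed 268 to 488 CPM to 507 to 685 CPM, and 1 was higher in Cornish at 5 weeks. Of 8 stellate cell markers, 4 rose and 1 fell with age in Ogye, from 366 to 511 CPM to 553 to 824 CPM, and 1 was higher in Cornish at 5 weeks. Without the 3 libraries edgeR called 0.904% of all tested genes either way at 5 weeks and 14% with age in Ogye. None of the 7 Kupffer markers was then called in either comparison, with an unadjusted p under 0.05 for 3 at 5 weeks and 1 with age. In the same fit 2 endothelial and 1 stellate marker rose with age in Ogye. No endothelial or stellate marker was then called at 5 weeks (unadjusted p under 0.05 for 0 of 9 and 1 of 8, edgeR). Red cell markers, 3 of 6 in the table, were all lower in Cornish at 5 weeks, and none of them was called without the 3 libraries, with an unadjusted p under 0.05 for 1. These 3, HBA1, HBAD and HBBA, are globin genes. The library kit, Ribo-Zero Globin, is made to remove globin RNA, and its part in their levels was not tested. With age in Ogye 1 of these 3 markers fell, and without the 3 libraries none of them was called (unadjusted p under 0.05 for 0, edgeR).

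Of 5 tested bile duct markers, 1 was lower and 1 higher in Cornish at 5 weeks, and the same genes, EPCAM and CFTR, fell and rose with age in Ogye. Without the 3 libraries none of the 5 was called at 5 weeks (unadjusted p under 0.05 for 2, edgeR), and 1 fell and 0 rose with age in Ogye. The shares of all tested genes called either way in that fit were 0.904% and 14%. EPCAM, an adhesion molecule of bile duct epithelium, had a mean of 74.1 ± 24.6 CPM in the 5-week Ogye group, 32.2 ± 7.10 CPM in the 5-week Cornish group and 28.6 ± 8.04 CPM in the 10-week Ogye group (SD, n = 5). Its log2 fold changes were -1.20 ± 0.22 between breeds at 5 weeks and -1.37 ± 0.23 with age in Ogye (adjusted p = 0.00631 and 0.000194, edgeR), and without the 3 libraries -0.76 ± 0.23 and -0.93 ± 0.23 (adjusted p = 0.152 and 0.0156). The median log2 fold change of the 5 bile duct markers was -0.077 between breeds at 5 weeks and 0.095 with age in Ogye. Without the 3 libraries these medians were 0.63 and 0.36. The summed level of the bile duct markers, which includes EPCAM at the means above, was 80.2 to 158 CPM in Ogye and 57.2 to 94.6 CPM in Cornish at 5 weeks. In Ogye at 10 weeks it was 57.7 to 83.6 CPM. Of 6 hepatocyte markers edgeR called none at 5 weeks (unadjusted p under 0.05 for 2), while with age in Ogye 2 rose and 3 fell, and 2 rose and none fell without the 3 libraries. FGB, a fibrinogen chain, rose by 1.79 ± 0.33 and TTR, a thyroid hormone carrier, fell by a log2 fold change of -1.82 ± 0.46 (adjusted p = 0.000412 and 0.00380), the latter -1.45 ± 0.59 without the 3 libraries (adjusted p = 0.107). Of 6 lymphocyte markers none was called at 5 weeks (unadjusted p under 0.05 for 1), and 1 rose and 1 fell with age in Ogye, against 0 risen and 1 fallen without the 3 libraries. The part of these cells in the IGFBP7 and IGFBP5 results was not tested. In the 10-week breed comparison over 20 libraries no Kupffer, endothelial, stellate, bile duct or red cell marker was called (unadjusted p under 0.05 for 0 of 7, 1 of 9, 4 of 8, 3 of 5 and 0 of 3). Of 6 hepatocyte markers 2 were higher and 2 lower in Cornish, and of 6 lymphocyte markers 1 was lower, beside 4.06% of all tested genes called higher and 3.59% lower. The hepatocyte markers summed to 180646 to 220141 CPM in Cornish and 165037 to 273602 CPM in Ogye. Without the 3 libraries 1 endothelial and 1 stellate marker were called lower in Cornish, and of the bile duct markers 1 higher and 1 lower, beside 17.2% of tested genes called either way.

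IGFBP1, an IGF inhibitor that insulin represses in mammals, varied widely within every group. IGFBP1 (chromosome 2, 54589779 to 54595974) was at 51.6, 10.98, 6.79, 74.2 and 11.8 CPM in Ogye at 5 weeks and 14.9, 11.96, 9.23, 77.0 and 12.9 CPM in Ogye at 10 weeks. Cornish livers held IGFBP1 at 15.6, 64.2, 12.6, 22.6 and 37.6 CPM at 5 weeks and 24.6, 139.6, 55.8, 66.6 and 18.0 CPM at 10 weeks. In Ogye 1 library of 10 weeks and 2 of 5 weeks were above 50 CPM while the others lay between 6.79 and 14.9 CPM. Coefficients of variation were 69.4% to 115%, and no comparison called IGFBP1, the largest difference between 2 groups being 1.28 ± 0.74 between breeds at 10 weeks (adjusted p = 0.311, edgeR), with an interval of 2 standard errors from -0.20 to 2.75. With age in Ogye the difference was -0.31 ± 0.73 over 20 libraries and -0.31 ± 0.89 without the 3 (adjusted p = 0.750 and 0.845), and the interaction was 1.30 ± 1.03 and 1.31 ± 1.11 (adjusted p = 0.357 and 0.457, edgeR).

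IGFBP3, the main IGF carrier of mammalian blood, lies 7.6 kb from IGFBP1 on chromosome 2 (54603575 to 54621232) and showed the narrowest spread. IGFBP3 was 6.15 to 9.25 CPM in Ogye at 5 weeks, 5.91 to 8.96 in Cornish at 5 weeks, 5.99 to 7.46 in Ogye at 10 weeks and 5.02 to 7.20 in Cornish at 10 weeks. The groups overlapped, coefficients of variation were 8.48% to 18.0%, and no comparison called it. At 10 weeks the interval of 2 standard errors on the breed difference of IGFBP3 ran from -0.41 to 0.22 on the log2 scale, and at 5 weeks from -0.36 to 0.25. Without the 3 libraries the breed differences at 5 weeks were -0.23 ± 0.19 for IGFBP3 and -0.037 ± 0.90 for IGFBP1 (adjusted p = 0.640 and 0.991, edgeR). The age difference of IGFBP3 in Ogye was -0.064 ± 0.16 with and -0.24 ± 0.19 without them (adjusted p = 0.753 and 0.429).

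IGFBP4, an inhibitor of IGF action that the protease PAPPA cleaves, is the shortest of the 10 genes at 5.30 kb (chromosome 27, 4441013 to 4446307). IGFBP4 was at 178, 180.2, 326, 406 and 390.3 CPM in Ogye at 5 weeks, with replicates 3, 4 and 5 well above replicates 1 and 2. Its ranges were 103 to 242 CPM in Cornish at 5 weeks, 233 to 343 in Ogye at 10 weeks and 227 to 382 in Cornish at 10 weeks, and these overlapped. No comparison over 20 libraries called IGFBP4, and its breed difference at 5 weeks changed from -0.59 ± 0.25 to 0.14 ± 0.27 without the 3 libraries (adjusted p = 0.10 and 0.865, edgeR). The fits without replicate 1 or without replicate 2 of that group instead gave -0.74 and -0.75 with adjusted p of 0.0279 and 0.0288. With age in Ogye IGFBP4 differed by -0.065 ± 0.25 over 20 libraries and by 0.67 ± 0.27 without the 3 (adjusted p = 0.848 and 0.110). The age difference in Cornish was 0.64 ± 0.25 (adjusted p = 0.120) and was called without the 3 libraries (adjusted p = 0.0342), at the same size.

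The 3 length-trended Ogye libraries read differently for different IGF genes. Relative to the median of the 20 libraries on the log2 scale, their median was -2.13 for IGF1R, -0.997 for IGF2R and -0.28 for IGF1, but 1.06 for IGFBP7, 0.54 for IGFBP4 and 0.46 for IGFBP5. In the other 2 Ogye libraries of 5 weeks the same 6 medians were 0.20, -0.14, 0.38, 0.14, -0.59 and -0.55. Genes of short span were not all high there. IGFBP1 at 6.20 kb stood at a median of -0.76 in the 3 libraries, which differed widely at 6.79, 74.2 and 11.8 CPM.

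**Figure D4:**
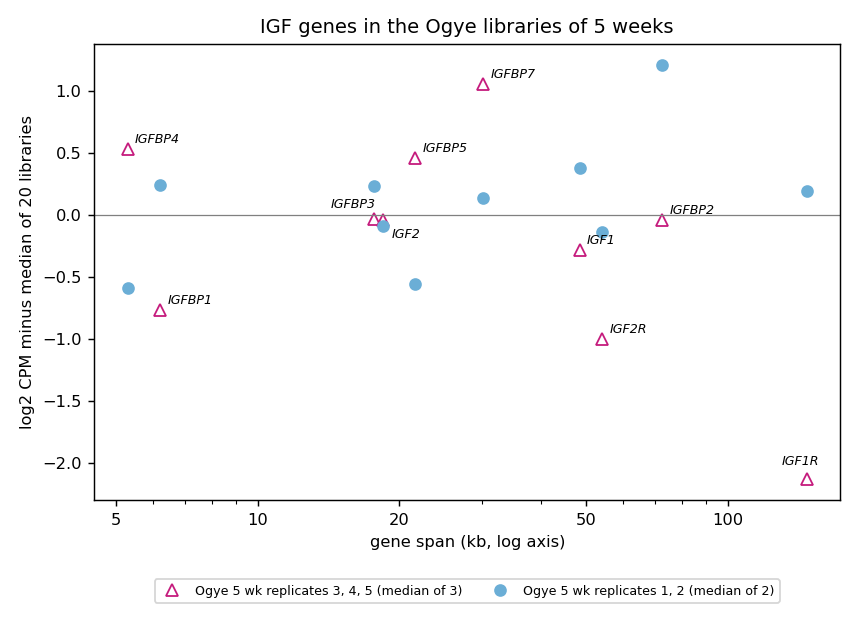
Deviation of the 10 IGF genes from the median of 20 libraries (y axis, log2 CPM) against gene span (x axis, kb, log axis) in the Ogye libraries of 5 weeks. Triangles are the median of replicates 3, 4 and 5 and circles that of replicates 1 and 2; IGF1R, the longest at 147 kb, stands at -2.13 and 0.20.

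Genes around the IGF genes in the same axis were read from 3 lists. Their counts stand beside the shares of all tested genes that edgeR called higher and lower, which were 4.06% and 3.59% between breeds at 10 weeks, 6.75% and 12.3% at 5 weeks, 21.2% and 24.8% with age in Ogye, 4.07% and 3.29% with age in Cornish, and 13.3% and 10.1% in the interaction. Of 13 tested genes of the growth hormone receptor and its signal, 3 were higher and 1 lower in Cornish at 10 weeks, and the list's median log2 fold change was -0.012, beside -0.027 over all tested genes. Without the 3 Ogye libraries of 5 weeks, 3 were higher and 3 lower, beside 17.2% of all tested genes called either way. GHR, the receptor itself, was lower in Cornish at 10 weeks (log2 fold change -0.60 ± 0.16, adjusted p = 0.0240, edgeR), at 625 ± 81.7 CPM against 950.1 ± 188 CPM (SD, n = 5). SOCS2, a feedback inhibitor induced by growth hormone, was higher by 1.78 ± 0.32 (adjusted p = 0.00376), with 12.02 to 35.0 CPM in Cornish and 3.80 to 9.62 CPM in Ogye. CISH, a feedback inhibitor of the same family, and PTPN1, a phosphatase that acts on JAK2 and the insulin receptor, were higher by 1.88 ± 0.51 and 1.59 ± 0.31 (adjusted p = 0.0302 and 0.00521). The breeds did not overlap at 10 weeks in any of these 4 genes, which were picked by their call, beside 12.3% of all tested genes. For CISH the gap was narrow, with Cornish from 224.8 CPM and replicate 2 of Ogye at 221.3 CPM. The other Ogye libraries of 10 weeks held 51.1 to 62.2 CPM of CISH.

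With age in Ogye, 4 genes of the growth hormone list rose and 2 fell. GHR rose by 2.05 ± 0.16 (adjusted p = 4e-07, edgeR) while SOCS2 fell by a log2 fold change of -2.31 ± 0.32 (adjusted p = 7.3e-05), and these were 1.83 and -2.08 without the 3 libraries, both still called. JAK2, the kinase bound to the receptor, rose by 0.79 ± 0.16, and PTPN11, a phosphatase of the pathway, by 0.70 ± 0.18 (adjusted p = 0.000992 and 0.00490), and without the 3 libraries both had an adjusted p above 0.05 (0.0584 and 0.286). In Cornish 3 rose with age and none fell, GHR by 0.80 ± 0.16, PTPN1 by 1.04 ± 0.30 and SOCS3, another feedback inhibitor, by 2.41 ± 0.66 (adjusted p = 0.00585, 0.0409 and 0.0322). SOCS3 varied widely, at 5.84 to 79.0 CPM in Cornish at 10 weeks and 4.08 to 10.4 CPM in Cornish at 5 weeks. In Ogye at 5 weeks it was 4.82 to 53.4 CPM, and both of these groups overlapped with Cornish at 5 weeks. At 5 weeks GHR was higher and SOCS3 lower in Cornish, with log2 fold changes of 0.65 ± 0.16 and -2.21 ± 0.65 (adjusted p = 0.0128 and 0.0275), neither of which was called without the 3 libraries (adjusted p = 0.378 and 0.370). The interaction called SOCS2 at 2.53 ± 0.44 and PTPN1 at 1.97 ± 0.43 as higher and GHR at -1.25 ± 0.22 as lower (adjusted p = 0.00100, 0.00381 and 0.00115), and all 3 held without the 3 libraries.

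**Figure D5:**
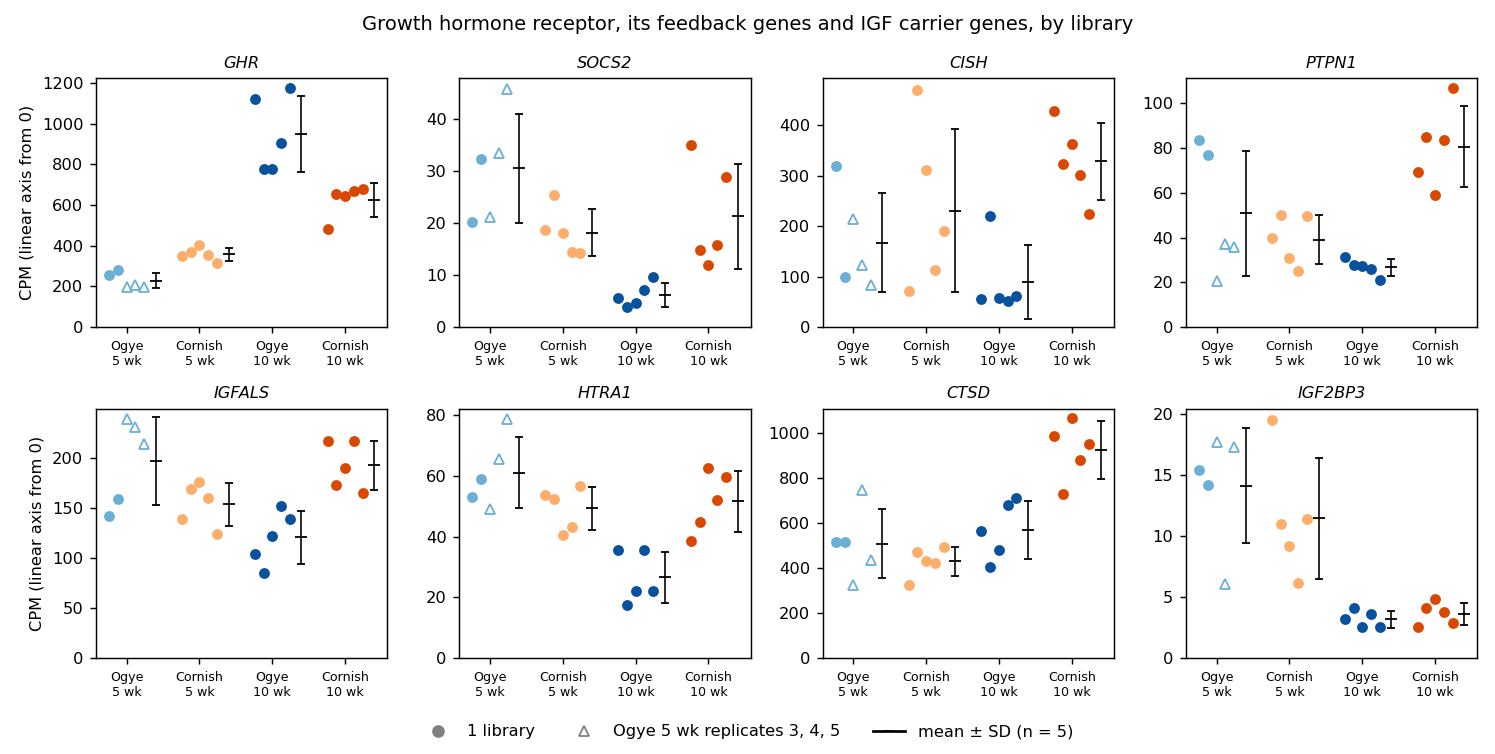
Level (y axis, CPM, linear from 0) of GHR, SOCS2, CISH, PTPN1, IGFALS, HTRA1, CTSD and IGF2BP3 in 20 libraries by group (x axis); points are libraries, open triangles replicates 3, 4 and 5 of Ogye at 5 weeks, bars the mean ± SD (n = 5). SOCS2 is 3.80 to 9.62 CPM in Ogye at 10 weeks, below every other library, where GHR is highest at 776 to 1173 CPM.

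Of 11 tested carrier, protease and mRNA-binding genes of the IGFs, 3 were higher and none lower in Cornish at 10 weeks, with a list median of 0.20. These were IGFALS, the acid-labile subunit, HTRA1, a secreted protease that cleaves IGFBPs, and CTSD, a lysosomal protease, higher by 0.67 ± 0.18, 0.96 ± 0.20 and 0.70 ± 0.20 (adjusted p = 0.0252, 0.00784 and 0.0422, edgeR). IGFALS was 165 to 217 CPM in Cornish and 85.3 to 152 CPM in Ogye at 10 weeks, with no overlap, as was so for 12.3% of all tested genes. Of 12 genes of the list tested without the 3 libraries, 3 were higher and 1 lower in Cornish at 10 weeks. That fit called 17.2% of all tested genes either way. In Ogye 4 fell and 2 rose with age. Without the 3 libraries 3 of 12 tested fell and 0 rose, beside 14% of all tested genes called either way. IGF2BP3, which binds IGF2 mRNA and is best known from fetal tissue, fell by a log2 fold change of -2.15 ± 0.31 and HTRA1 by -1.20 ± 0.20 (adjusted p = 8.4e-05 and 0.000196, edgeR), and these were -2.21 and -1.07 without the 3 libraries (adjusted p = 0.000735 and 0.00845). IGFALS fell by a log2 fold change of -0.71 ± 0.18 (adjusted p = 0.00377), which was -0.31 ± 0.20 without the 3 libraries (adjusted p = 0.309). IGF2BP3 fell also in Cornish, by a log2 fold change of -1.65 ± 0.30 (adjusted p = 0.00400), where CTSD rose by 1.10 ± 0.21 (adjusted p = 0.00441). At 5 weeks edgeR called none of the list, with or without the 3 libraries, whose removal left 0.904% of all tested genes called. The unadjusted p was under 0.05 for 3 of the list's 11 genes over 20 libraries and for 0 of 12 without the 3. The interaction called 3 higher and 1 lower, led by HTRA1 at 1.26 ± 0.28 and IGFALS at 1.03 ± 0.25 (adjusted p = 0.00424 and 0.00717, edgeR). Without the 3 libraries it called 2 higher and 0 lower, beside 13.6% of all tested genes called either way. IGFALS then had an edgeR adjusted p of 0.0948.

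Of 32 tested genes downstream of the IGF1 and insulin receptors, 1 was higher and 2 lower in Cornish at 10 weeks. Without the 3 libraries 4 were higher and 3 lower, beside 17.2% of all tested genes called either way. IRS4 and IRS1 are adaptors bound by the receptors. IRS4 was higher and IRS1 lower, at 1.83 ± 0.48 and -0.78 ± 0.22 on the log2 scale (adjusted p = 0.0242 and 0.0397, edgeR), with no overlap between the breeds, as was so for 12.3% of all tested genes. In Ogye 14 rose and 3 fell with age, in a comparison that called 46.1% of all tested genes, 21.2% higher and 24.8% lower. Among them were EIF4EBP1, a repressor of cap-dependent translation, at -1.69 ± 0.22, IRS1 at 1.57 ± 0.23 and AKT1, the kinase of the insulin branch, at 1.12 ± 0.18 (adjusted p = 4.9e-05, 9.1e-05 and 0.000145). These 3 genes were called without the 3 libraries too, but the list's counts there were 5 risen and 3 fallen, beside 14% of all tested genes called either way. In Cornish 3 rose and 1 fell with age, among them IRS4 at 2.03 ± 0.48, GRB14 at 0.64 ± 0.17 and DDIT4 at -1.49 ± 0.42 (adjusted p = 0.0172, 0.0332 and 0.0376).

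At 5 weeks 5 genes of the receptor signal list were higher and 2 lower in Cornish, led by IRS1 at 1.06 ± 0.23 and MTOR, the growth-regulating kinase, at 0.75 ± 0.18 (adjusted p = 0.00847 and 0.0114, edgeR). Without the 3 libraries the counts were 1 and 1, beside 0.904% of all tested genes called either way. IRS1 then had an edgeR adjusted p of 0.0944 and MTOR of 0.365. The interaction called 2 higher and 6 lower, led by IRS1 at -1.83 ± 0.32 and EIF4EBP1 at 1.45 ± 0.30 (adjusted p = 0.000973 and 0.00325, edgeR). Without the 3 libraries it called 6 higher and 4 lower, beside 13.6% of all tested genes called either way.

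The genes most like 4 of the IGF genes across the 20 libraries were taken by the smallest mean absolute difference of log2 CPM after each gene was centred on its own mean, among 10598 named genes. For IGF1 these were CCSER1 at 0.30, PLCXD2 at 0.32 and CHRM2 at 0.32, where the mean absolute deviation of IGF1 from its own mean was 0.59. Those for IGF2 were TMEM41B at 0.30, CAST at 0.32 and GRPEL2 at 0.35, beside an own deviation of 0.55. Those for IGFBP2 were CPT1A at 0.84, TEN1 at 0.85 and CA9 at 0.88, beside an own deviation of 1.49. CPT1A, the entry enzyme of mitochondrial fatty acid oxidation, was 27.1 to 49.3 CPM in Ogye at 10 weeks and 105 to 332 CPM in Cornish at 10 weeks. For IGFBP1 they were FST at 0.64, SLC7A5 at 0.64 and ADAM8 at 0.70, beside an own deviation of 1.10. Some of these genes had few counts in Ogye at 10 weeks, 11 to 23 for CCSER1, 4 to 21 for PLCXD2, 3 to 26 for TEN1 and 5 to 16 for ADAM8. The differences above describe the 20 libraries, which share groups and depth, and carry no test.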

How the data were processed

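Total liver RNA came from an RNeasy kit and libraries from the TruSeq Stranded Total RNA kit (Ribo-Zero Globin), per the labels' protocols. The authors deposited raw counts for 20 libraries, made with FastQC, MultiQC, STAR, the build GRCg7b and featureCounts, per the submitters' processing notes. The sources used here give no versions and no strand setting. Of 54062 entries, 13956 named genes were used. The 40097 assembled entries, with 30.4% to 37.0% of counts, and 9 entries without a gene name, with 0.013% to 0.059%, were left out.

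Genes were kept by filterByExpr (10697) and scaled by TMM. One edgeR 4.0.16 robust quasi-likelihood model in R 4.3.3, with a mean per group over 20 libraries, gave 5 contrasts with 2-sided tests. Adjusted p is Benjamini-Hochberg over all tested genes and a standard error is the log2 fold change over the square root of F. DESeq2 1.42.0 and other alternatives are given in the closing section. No columns were identical, and Spearman correlations of library pairs reached 0.990. The floor of 3 counts is 0.128 to 0.335 CPM, for counting error only. Positions come from RefSeq, in which 12769 named genes matched by symbol.

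Each IGF gene is named in every contrast, with up to 4 called genes of lowest adjusted p per list and the 3 genes most like IGF1, IGF2, IGFBP1 and IGFBP2. Some genes that this rule takes are not reported here. Members, lists and tests were chosen with earlier results of these data known. The scripts were tested on simulated data.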

Additional observations from a re-analysis of the deposited data

Results flagged for a closer look

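In 40 groups of 5 libraries (10 IGF genes in 4 groups), 3 held a library whose gap to the next exceeded 0.71 of the group's range. Chance gives such a gap in about 1 group in 20 if values are normally distributed, which CPM need not be. At that rate some of 40 groups would be flagged by chance. All 3 flagged libraries were in Ogye at 10 weeks. IGF2 was 83.2 CPM in replicate 2, where the other 4 were 38.5 to 50.2 CPM. IGFBP1 was 77.0 CPM in replicate 4, where the others were 9.23 to 14.9 CPM. IGFBP2 was 2.42 CPM in replicate 1, where the others were 0.813 to 1.21 CPM.

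The breed effect differed between the ages, by edgeR's interaction term, for IGF1 by 1.48, for IGF2 by 1.26, for IGFBP2 by 4.004 and for IGFBP5 by 1.42 on the log2 scale.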

How the results depend on the processing

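Of 50 results (10 IGF genes in 5 contrasts), 20 kept their direction and side of the threshold in all alternatives run, 29 for each contrast of 2 groups and 28 for the interaction, 16 changed side and 19 changed sign. None of the 13 called results changed sign, and 7 lost their call somewhere. The calls of IGF1 and IGFBP2 at 10 weeks, with age in Ogye and in the interaction held in every alternative: IGF1 at 10 weeks from 1.27 to 1.71 and IGFBP2 from 3.13 to 3.92. The W-chromosome covariate, described next, ended the calls of IGF2 at 10 weeks (edgeR adjusted p = 0.0893) and in the interaction (0.277). It also ended those of IGFBP5 in the interaction (0.273) and of IGFBP7 at 5 weeks (0.173) and with age in Ogye (0.0731). This covariate itself separated the breeds at 10 weeks, as given below.

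Percentages in parentheses are the shares of all tested genes that the same fit called either way. The number of IGF genes called at 5 weeks was 1 of 10 (19.1%). It became 0 with no filter (14%), with the compared groups only (0.528%) and without the 3 Ogye libraries (0.904%). It was 0 also with the summed W-chromosome expression as a covariate (4.05%) and with all entries of the table (17%). When 1 library was left out it was 0 to 4 (6.37% to 36.6%, the fit with 4 at 36.6%). At 10 weeks the number went from 3 (7.65%) to 2 with the replicate block (6.76%) and the W covariate (9.25%). It was 4 with the compared groups only, which added IGFBP5 (14.5%), and 2 to 3 when 1 library was left out (4.27% to 9.29%). With age in Ogye it went from 4 (46.1%) to 2 without the 3 libraries (14%) and to 3 with the W covariate (26.3%). It was 5 with RLE size factors (46.3%), DESeq2 (49.9%), the span offset (38.3%) and all entries (42.2%). When 1 library was left out it was 4 to 6 (36.6% to 54.3%), with 6 and 54.3% without replicate 1 of Ogye at 5 weeks. With age in Cornish it went from 1 (7.36%) to 0 with no filter (5.3%), with the replicate block (6.1%) and with all entries (7.77%). It was 2 without the 3 libraries (20.3%) and with an offset for gene span (10.5%), and 0 to 1 when 1 library was left out (3.52% to 9.72%). In the interaction it went from 4 (23.4%) to 2 without the 3 libraries (13.6%) and with the W covariate (10.8%). It was 5, with IGFBP7 added, with RLE size factors (23.5%), DESeq2 (28.4%) and the span offset (21.4%). It was lowest at 2 and highest at 5 when 1 library was left out (17.9% to 33.4%).

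Sign changes were in uncalled genes and the cause was not tested. At 5 weeks the replicate block gave 0.25 for IGFBP1. Leaving out the 3 libraries gave -0.33 for IGF1, -0.054 for IGF1R, -0.041 for IGF2R, 0.14 for IGFBP4 and 0.14 for IGFBP5. The span offset gave -0.24 for IGF1 and 0.23 for IGFBP1, and the W covariate -0.10 for IGF1 and 0.056 for IGF2. At 10 weeks the W covariate gave 0.42 for IGF1R. With age in Ogye the 3 libraries' removal gave -0.18 for IGF1R and 0.67 for IGFBP4, the span offset 0.063 for IGFBP1 and 0.47 for IGFBP4, and the W covariate 0.090 for IGFBP4. With age in Cornish the W covariate gave 0.057 for IGF1R. In the interaction the removal gave 0.031 for IGF1R, 0.17 for IGF2R, 0.13 for IGFBP3 and -0.027 for IGFBP4, the span offset 0.039 for IGF2R and 0.010 for IGFBP3, and the W covariate 0.084 for IGF2R. With 1 library left out, the ranges that crossed 0 were, at 5 weeks, -0.080 to 0.12 for IGF1, -0.49 to 0.58 for IGFBP1 and -0.16 to 0.041 for IGFBP3, at 10 weeks -0.15 to 0.16 for IGF1R, with age in Ogye -1.34 to 0.30 for IGFBP1, -0.12 to 0.035 for IGFBP3 and -0.23 to 0.073 for IGFBP4, with age in Cornish -0.059 to 0.22 for IGFBP7, and in the interaction -0.14 to 0.062 for IGFBP3.

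The labels state no pairing by replicate number. After group means were taken out, same-numbered libraries of 2 groups correlated at -0.24 to 0.28, over 0.1 in 7 of 30 pairs. The own number was best in 7 of 30, with 5 candidates each. These values cannot settle whether the numbers carry a pairing. The block gave 1910 called genes at 5 weeks against 2042. The compared groups only gave 56, leaving out the 3 libraries 99, the W covariate 433 and single libraries 686 to 3945. With age in Cornish they gave 2330 (compared groups) and 2219 (3 libraries) against 787, and at 10 weeks 1474 and 1882 against 818. The labels give no sex, and the W-linked log2 sum was 4.45 in replicate 3 of Ogye at 5 weeks and 6.21 to 6.96 in all others. At 10 weeks this sum was 6.21 to 6.41 in Cornish and 6.51 to 6.96 in Ogye, with no overlap. Depth limits IGFBP2 in Ogye at 10 weeks, at 9 to 29 counts.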
